A study of Mus musculus with 6 samples.

Results

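The genes described here are 10 markers of thymocyte stage and maturation, Endou, Cd24a, Cd27, Cd5, Cd6, Cd69, Cd2, Cd7, Thy1 and Themis. They were found by gene name among the 54532 genes of the expression table, and all 10 were among the 13393 genes with enough signal to be tested. The genes were chosen by their role and with their FPKM values in the KO and WT libraries already known, so the values of its members are given as a description and no p-value is attached to them.

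RNA was measured in bone marrow (BM) of C57BL/6 mice, taken at day 100 after transplantation, from mice that model T-ALL, a leukemia of immature T cells. In both groups the transplanted lineage-negative BM cells came from male mice with a floxed Phf6 allele and were transduced with a retrovirus that encodes JAK3 M511I, an activated form of the JAK3 kinase, together with GFP. In the Phf6 knockout (KO) group the donors also carried Vav1-Cre, which acts throughout the blood lineage, and the wild-type (WT) donors did not. There were 3 WT and 3 KO libraries, and whether GFP-positive cells were sorted before the RNA was made is not given in the labels. The genotype labels name Phf6, Phf7 or Phf8 within each group while the design text has Phf6 alone, and Phf6 was taken as the gene meant in all of them. The labels do not say that the 3 libraries of a group came from separate animals, so the p-values printed for other genes measure only the spread between these libraries, which may be technical.

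T cells mature in the thymus in ordered stages that are followed by the proteins on their surface. Early thymocytes rearrange their receptor genes and carry CD24 at a high level; after positive selection, cells show CD69 and raise CD5 with the strength of receptor signaling, and later lose CD24 and CD69 before they leave. THY1 and CD2 stay on the T lineage from early stages to the mature cell in mice, and THEMIS is an adaptor needed for the passage through positive selection.

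Depth was 13015823 to 18235095 reads per library, recovered from the deposited FPKM (fragments per kilobase of gene, scaled to library size). Levels are FPKM throughout, and differences are KO minus WT on the log2(FPKM + 1) scale with their standard error (SE), which understates the change of low genes. The targeted gene did not separate the groups. Phf6 was at 7.47, 3.67 and 8.02 FPKM in WT 1, 2 and 3 and at 6.73, 5.50 and 5.11 FPKM in KO 1, 2 and 3, and since a gene-level value also counts the exons that the deletion leaves, it neither checks nor contradicts the labels. WT 2 stood apart: across genes its Pearson r with the other WT libraries was 0.779 and 0.746, against 0.948 between those libraries and 0.963 to 0.973 between KO libraries, and the differences of the 10 genes are given with and without it. Markers of other blood cells also differed between the groups. The summed FPKM of 8 neutrophil markers was 5573 to 87548 in WT and 74.9 to 244.0 in KO, that of 5 B cell markers was 11.1 to 977 in WT and 0.906 to 1.11 in KO, and that of 5 NK cell markers was 47.6 to 95.6 in WT and 0.370 to 1.40 in KO, whereas 7 T cell genes summed to 501 to 1254 in WT and 832 to 931 in KO. Markers of monocytes summed to 307 to 4629 in WT and 7.46 to 21.7 in KO. All 5 B cell, all 8 neutrophil and all 5 NK cell markers were lower in every KO library than in every WT library, and of these 18 markers only Klra8, an NK receptor, was at 0 in all 3 KO libraries. The part of these other cells in the results that follow was not tested, and in bulk RNA fewer cells of a type and less RNA per cell cannot be told apart.

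Of the 10 genes, Endou and Themis were higher and Cd5, Cd6, Cd69 and Cd7 were lower in KO past the threshold of the limma fit, and Cd24a, Cd27, Cd2 and Thy1 did not pass it. This is 6 of 10 genes (2 higher, 4 lower), beside 26.4% of all genes tested (13.1% higher and 13.3% lower). The median difference of the 10 genes was -0.99, beside 0.09 for all genes. In 9 of the 10 genes the groups did not overlap, 3 with every KO library above every WT library and 6 below, beside 49.1% of all genes (26.2% above and 22.9% below). Without WT 2 the count was 8 of 10 (2 higher, 6 lower), as Cd2 and Thy1 also passed, beside 52% of all genes (26.8% higher, 25.3% lower). The scaling of the libraries matters for the weak differences. Of the genes called, 49.6% were higher in KO with FPKM as deposited, 67.8% after rescaling each library to TPM and 36.1% after centering each library on the CD3 chain genes. Rescaling to TPM moved the median of all genes to 0.86, and it left 2 of the 10 genes higher (beside 17% of all genes) and 2 lower (beside 8.07%). The summed FPKM was 897352 in WT 2, 329893 in WT 1, 305933 in WT 3 and 244936 to 256722 in KO. This rescaling thus lowers WT 2 most relative to the other libraries.

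**Figure D1:**
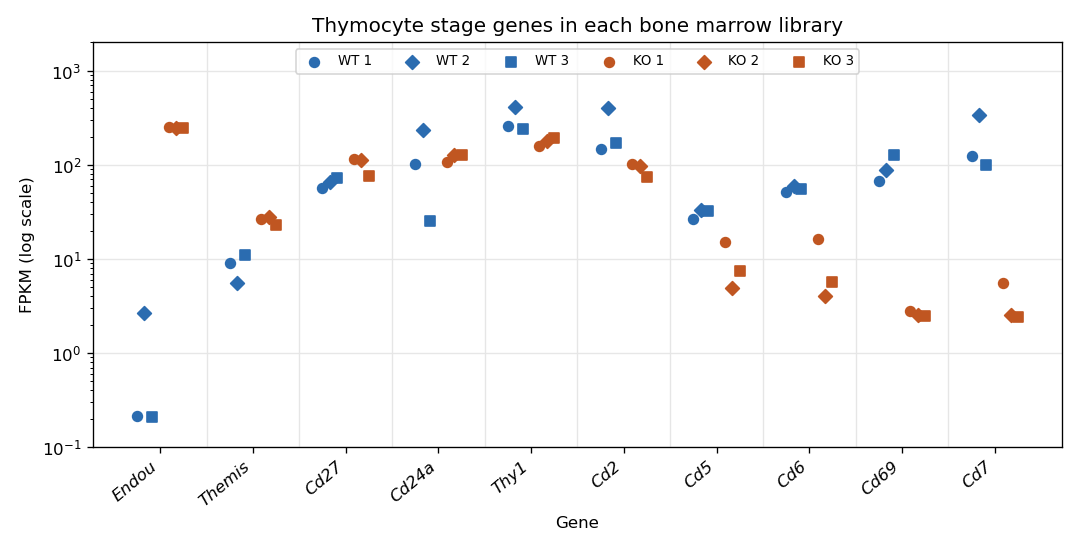
FPKM (log scale) of each of the 10 genes in the 3 WT (blue) and 3 KO (orange) libraries, 1 point per library with circle, diamond and square for libraries 1, 2 and 3 of each group, ordered by the difference between the groups. Cd24a is the gene whose groups overlap, and Endou has its 3 KO points on top of each other at 248 to 250 FPKM.

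The promoters are shown for the members with an entry in the RefSeq promoter table (GRCm38.p6), which are Themis, higher in KO, Cd5, lower in KO, and Cd27, which did not pass. Endou, Cd24a, Cd6, Cd69, Cd2, Cd7 and Thy1 had no entry. Themis had a second entry, with its transcript start at base 28668395, which is not printed. Each run is the 250 bases before the transcript start, 5′ to 3′ on the strand of the gene. Capitals mark matches, on either strand, to 8 short motifs of factors known in T cell development or transcription start. Those of the E proteins were searched as CAGGTG, and a second form of the same box was searched as CAGCTG. The letters for the RUNX factors were TGTGGT, and the ETS family was represented by AGGAAG. For the TCF and LEF factors the letters searched were CTTTGA, and for RBPJ, the partner of Notch, they were TGGGAA. The GATA motif was searched as AGATAA, and the box bound by TBP was searched as TATAAA. The first is Themis on chr10:28668110-28668359, plus strand; the second is Cd5 on chr19:10738975-10739224, minus strand; the third is Cd27 on chr6:125237028-125237277, minus strand, whose transcript start lies 17 bases from the gene start in the expression table.
Themis: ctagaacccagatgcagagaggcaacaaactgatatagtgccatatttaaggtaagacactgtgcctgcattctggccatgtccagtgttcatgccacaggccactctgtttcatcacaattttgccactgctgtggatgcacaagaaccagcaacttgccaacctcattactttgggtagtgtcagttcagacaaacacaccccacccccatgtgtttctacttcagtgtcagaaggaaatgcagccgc
Cd5: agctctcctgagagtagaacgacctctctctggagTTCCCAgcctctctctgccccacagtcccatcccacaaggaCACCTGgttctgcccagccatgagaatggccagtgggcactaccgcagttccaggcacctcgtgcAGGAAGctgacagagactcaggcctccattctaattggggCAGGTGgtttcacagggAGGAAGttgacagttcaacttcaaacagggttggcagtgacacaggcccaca
Cd27: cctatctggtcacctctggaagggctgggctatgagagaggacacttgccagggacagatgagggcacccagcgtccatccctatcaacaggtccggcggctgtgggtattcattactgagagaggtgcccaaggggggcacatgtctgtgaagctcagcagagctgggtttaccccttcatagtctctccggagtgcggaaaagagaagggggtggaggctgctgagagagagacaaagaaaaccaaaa
The Cd5 window held CAGGTG or its reverse complement at 2 places, AGGAAG at 2 places and the reverse complement of TGGGAA once, none of which overlapped. Among the 32851 promoter windows of the table, 17.2% held CAGGTG, 29.5% AGGAAG and 21.6% TGGGAA on either strand. The Themis and Cd27 windows held none of the 8 motifs, which says only that these letters are absent from these windows. Of all windows, 13.0% held the second E-box form, 14.0% the RUNX motif, 13.8% the TCF and LEF motif, 9.99% the GATA motif and 12.4% the TBP motif.

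The stage genes Endou and Cd24a are taken first. Endou (chr15:97711015-97731339, minus strand) encodes an endoribonuclease that cuts RNA at uridines. It was at 0.212, 2.66 and 0.212 FPKM in WT 1, 2 and 3, which rested on 9, 86 and 9 reads, and at 250.1, 249 and 248 FPKM in KO 1, 2 and 3, on 10769 to 12789 reads. Every KO library was far above every WT library, and the KO libraries were almost equal, with a coefficient of variation (CV) of 0.443%. The mean was 249 ± 1.10 FPKM in KO and 1.03 ± 1.42 FPKM in WT (SD, n = 3 each). The difference was 7.16 (SE 0.46), and 7.69 (SE 0.11) without WT 2, the WT library with the most Endou. From the lowest of the 10 genes in WT, Endou became the highest in KO, above Thy1 in each of the 3 KO libraries.

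Cd24a (chr10:43578284-43584265, plus strand), which encodes the small lipid-anchored glycoprotein also called heat-stable antigen, was at 101, 235 and 25.1 FPKM in WT 1, 2 and 3. In KO 1, 2 and 3 it was at 108, 126 and 127 FPKM. All 3 KO values lay between WT 1 and WT 2, so the groups overlapped, and the WT libraries spread 9.35-fold against 1.17-fold in KO. The difference was 0.50 (SE 0.77); it was 1.23 (SE 0.54) without WT 2 and turned to -0.35 without WT 3. CD24 is also carried by B cells, red cell precursors and immature granulocytes. In WT the order of Cd24a (WT 2, WT 1, WT 3) was that of the neutrophil marker sum, at 87548, 28047 and 5573 FPKM. The monocyte marker sum had the same order, at 4629, 1740.5 and 307 FPKM. So had the sum of 4 megakaryocyte markers, at 59.3, 5.67 and 4.96 FPKM. The sum of 5 stroma and endothelium markers also had it, at 1.07, 0.671 and 0.174 FPKM. In KO the neutrophil sum was 74.9 to 244 FPKM, with Cd24a at 108 to 127 FPKM. An order over so few libraries cannot name the cells that carry Cd24a, which was not tested. The B cell sum had another order, at 977 in WT 2, 11.1 in WT 1 and 17.04 in WT 3, as had the erythroid sum, at 61816, 126 and 497, against 9.71 to 112 in KO. With Thy1 as the base, Cd24a was 0.393, 0.574 and 0.103 of Thy1 in WT 1, 2 and 3 and 0.650 to 0.701 of Thy1 in KO, and these ratios did not overlap.

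**Figure D2:**
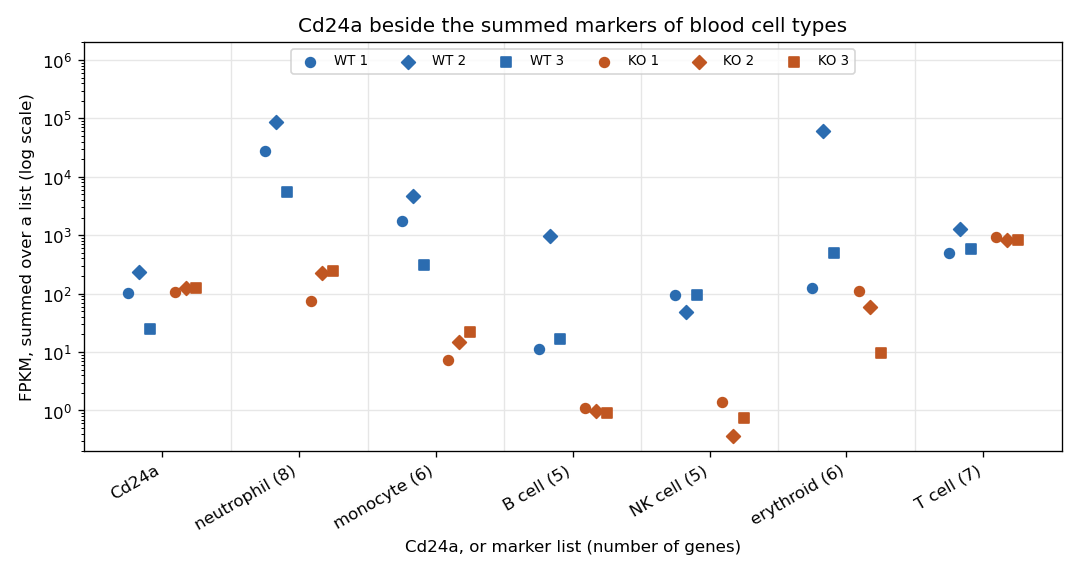
FPKM (log scale) of Cd24a beside the summed FPKM of 6 marker lists, 1 point per library, WT blue and KO orange. Among the WT libraries, WT 2 is the highest for Cd24a and for the neutrophil, monocyte, B cell, erythroid and T cell sums and the lowest for the NK cell sum, and the T cell sum is the 1 list whose groups overlap.

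Among the surface proteins carried by most T cells, Cd7 separated the groups by most. Cd7 (chr11:121036747-121039418, minus strand) encodes an immunoglobulin-family receptor of early T and NK cells. It was at 124, 335 and 100.1 FPKM in WT 1, 2 and 3 and at 5.50, 2.52 and 2.41 FPKM in KO 1, 2 and 3. The KO values rested on 116, 45 and 44 reads, and the lowest WT library was far above the highest KO library. Mean Cd7 was 53.6-fold lower in KO, or 32.2-fold lower without WT 2, its highest library, with a difference of -5.24 (SE 0.52), or -4.72 (SE 0.31) without WT 2. Relative to Thy1 in the same library, Cd7 was 0.413 to 0.820 in WT and 0.0124 to 0.0346 in KO.

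Cd2 (chr3:101275899-101287939, minus strand), which encodes an adhesion receptor that helps T cells hold on to partner cells, was at 148, 400.3 and 172 FPKM in WT and at 101, 97.6 and 74.0 FPKM in KO, in library order. All KO values were below the lowest WT value, but the difference of -1.26 (SE 0.45) did not pass the threshold with all libraries. Without WT 2, the highest library, it was -0.82 (SE 0.18) and passed. Relative to Thy1, Cd2 was 0.575 to 0.979 in WT and 0.379 to 0.636 in KO, which overlapped.

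Thy1 (chr9:44043384-44048579, plus strand) encodes the lipid-anchored protein by which mouse T cells are most often recognized. It was at 257, 409 and 242 FPKM in WT and at 159, 180.4 and 195 FPKM in KO, with no overlap. The difference of -0.73 (SE 0.36) did not pass; without WT 2 it was -0.49 (SE 0.15) and passed. After rescaling to TPM it was 0.11, which is -0.75 relative to the median of all genes on that scale, so the sign of Thy1 depends on the scaling.

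Cd5 and Cd6 are paralogs with scavenger receptor domains that temper signals from the T-cell receptor (TCR), and they lie 50366 bases apart on chromosome 19, both on the minus strand. Cd5 (chr19:10718143-10738974) was at 26.4, 32.8 and 32.4 FPKM in WT and at 15.3, 4.91 and 7.36 FPKM in KO. Cd6 (chr19:10789341-10830058) was at 52.1, 60.02 and 54.8 FPKM in WT and at 16.4, 4.01 and 5.64 FPKM in KO. For both genes the WT libraries lay close together, the KO libraries lay below them, and KO 1 was the highest KO library.

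The difference was -1.76 (SE 0.40) for Cd5 and -2.76 (SE 0.47) for Cd6, and without WT 2 it was -1.70 (SE 0.42) and -2.71 (SE 0.51). KO libraries spread 3.11-fold for Cd5 and 4.09-fold for Cd6, against 1.25-fold and 1.15-fold in WT. Cd6 exceeded Cd5 in each WT library, at 1.97, 1.83 and 1.69 times its level, while in KO 1, 2 and 3 it was at 1.07, 0.817 and 0.767 times the level of Cd5. The ratios did not overlap between the groups; they use the gene lengths of the deposited table, which were shorter than all annotated exons together for these genes (2069 of 4928 bases for Cd5 and 3404 of 7968 for Cd6). Cd5 did not pass the threshold without WT 3, KO 2 or KO 3 or after rescaling to TPM, and Cd6 did not pass after rescaling to TPM. The differences after this rescaling were -1.02 for Cd5 and -2.06 for Cd6. Relative to the median of all genes on that scale they were -1.88 and -2.92.

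Cd69 (chr6:129267325-129275436, minus strand) encodes a lectin-like receptor that appears soon after TCR stimulation and holds cells in tissue by pairing with the lipid receptor S1PR1. It was at 67.5, 89.1 and 128 FPKM in WT and at 2.83, 2.53 and 2.50 FPKM in KO. The WT libraries spread 1.89-fold and the KO libraries 1.13-fold, with a wide gap between them. Mean Cd69 was 36.2-fold lower in KO, with a difference of -4.68 (SE 0.29) and of -4.70 (SE 0.27) without WT 2.

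Themis (chr10:28668360-28883818, plus strand), whose product binds GRB2 and the phosphatase SHP1 below the TCR, went the other way from Cd5 and Cd6. It was at 8.97, 5.50 and 11.1 FPKM in WT and at 26.2, 27.99 and 22.8 FPKM in KO. The lowest KO library was above the highest WT library, and mean Themis was 3.01-fold higher in KO, with a difference of 1.53 (SE 0.30), or 1.27 (SE 0.16) without WT 2. The call was lost without KO 1, without KO 2 and when libraries were centered on the CD3 genes. Exons of another annotated gene, 4930519F09Rik, share 153 of the 11682 exon bases of Themis.

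Cd27 (chr6:125232622-125237010, minus strand) encodes a receptor of the tumor necrosis factor family that supports the survival of stimulated T cells. It was at 56.4, 65.4 and 72.3 FPKM in WT and at 115, 112 and 76.3 FPKM in KO. KO 3 lay just above WT 3, so the groups did not overlap but nearly met, and the difference of 0.62 (SE 0.29) did not pass. Without WT 2 it was 0.63 (SE 0.23) and did not pass either. Cd27 lies within the span of Vamp1 on the opposite strand, with 0 exon bases shared, and the annotated Mir8113 shares all of its 129 exon bases with Cd27. Vamp1 was at 4.86, 1.57 and 8.14 FPKM in WT and at 24.3, 19.9 and 16.8 FPKM in KO.

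**Figure D3:**
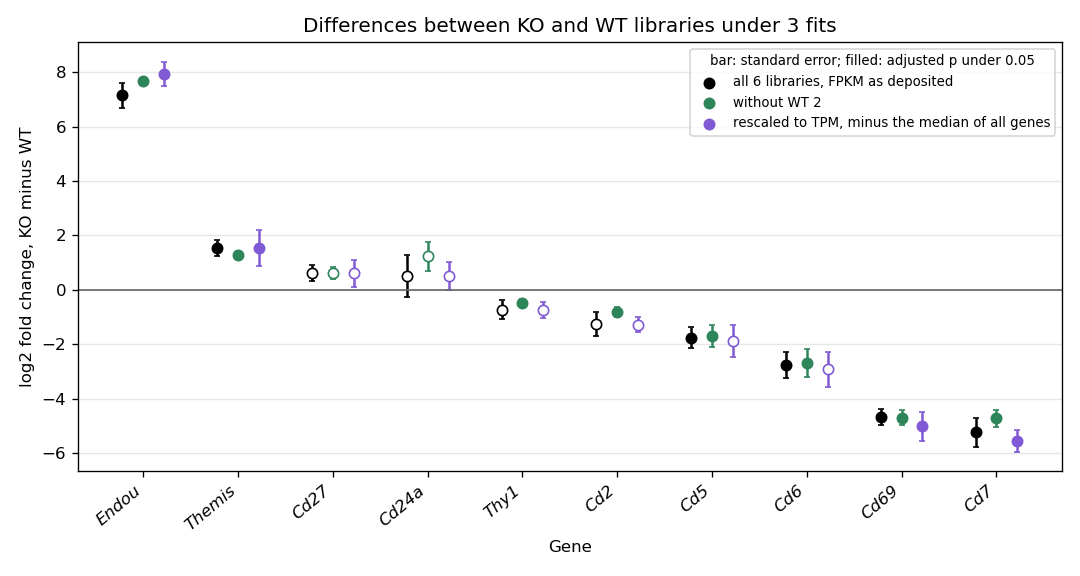
Difference between KO and WT (log2 scale) of the 10 genes with its SE under 3 fits, with all libraries as deposited (black), without WT 2 (green) and after rescaling to TPM, shown minus the median of all genes on that scale (purple). Filled points passed the limma threshold. For the purple points the difference tested was that before the median (0.86) was subtracted, so their fill does not refer to the value drawn. Endou, Themis, Cd69 and Cd7 are filled in all 3 fits, and Cd24a and Cd27 in none.

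Ranked by mean FPKM, the WT order was Thy1, Cd2, Cd7, Cd24a, Cd69, Cd27, Cd6, Cd5, Themis and Endou. Neighbors overlapped in range down to Cd6, and Cd6 and Cd5, Cd5 and Themis, and Themis and Endou did not. In KO the order was Endou, Thy1, Cd24a, Cd27, Cd2, Themis, Cd5, Cd6, Cd7 and Cd69. There the ranges did not overlap between Endou and Thy1, Thy1 and Cd24a, Cd2 and Themis, or Themis and Cd5, and the other neighbors did overlap. Cd7 and Cd69 thus moved from among the higher genes to the lowest places, while the summed FPKM of the 10 genes was 838 to 1634 in WT and 761 to 807 in KO. Endou made up 30.9% to 32.6% of that sum in KO and 0.0253% to 0.163% in WT.

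The partners of these proteins on other cells or on the same membrane were also read from the fit, from a list written with earlier results known. Of the 11 genes, 6 were tested, of which 4 were lower and none higher in KO, with a median difference of -2.36. Of all genes tested, 13.3% were lower and 13.1% higher, with a median of 0.09. S1pr1, the partner of CD69, was at 93.8, 31.7 and 72.7 FPKM in WT and at 0.546, 0.229 and 0.918 FPKM in KO, a difference of -5.31 (SE 0.44, limma adjusted p = 0.000562). Thus Cd69 and S1pr1 were both lower in KO. Cd48, the ligand of CD2 in mice, was at 54.8, 127 and 55.9 FPKM in WT and at 21.2, 25.1 and 22.05 FPKM in KO (limma adjusted p = 0.0209). Itgb3, a chain of an integrin that binds THY1, and Cd72, a proposed ligand of CD5, were lower by the same fit, at -2.25 (SE 0.33, adjusted p = 0.00397) and -2.87 (SE 0.71, adjusted p = 0.0271). The count of 4 became 2 when any 1 KO library was left out. Of all 13393 genes tested, 1082, 996 and 1059 were lower without KO 1, KO 2 and KO 3. The count of 4 became 5 without WT 2 (beside 25.3% of all genes). It became 3 after rescaling to TPM (beside 8.07%), where Cd48 and Itgb3 did not pass.

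Other ligands were scarce. Cd70, the ligand of CD27, and Sectm1a and Sectm1b, related to the ligand of CD7, had 0 reads in all 6 libraries; a floor of 3 reads allows up to 0.303, 0.151 and 0.0918 FPKM for them in the library with the highest floor, for counting error only. The CD6 ligands Alcam and Cdcp1 were under the filter, Alcam at 0.670 to 2.08 FPKM in WT and 0.0151 to 0.0803 FPKM in KO. Inside the cell, 2 of 19 partners of these receptors were lower and none higher, with a median of -0.09, beside 13.3% and 13.1% of all genes. The counts were 3 lower and 3 higher without WT 2, beside 25.3% and 26.8% of all genes. They were 4 lower and none higher without WT 3, beside 1661 and 1489 of all 13393 genes tested. After rescaling to TPM they were 1 lower and 1 higher, beside 8.07% and 17%. The genes lower with all libraries were Traf5, an adaptor of CD27 (-2.16, SE 0.32), and Sh2d2a, an adaptor that binds the kinase LCK (-1.40, SE 0.24), both named after their values were seen, as are the relatives that follow.

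Relatives by family moved mostly down. Of 13 genes, 10 were tested, with 1 higher and 6 lower in KO and a median of -1.67, beside 13.1% and 13.3% of all genes. Without WT 2, 7 were lower and 1 higher, beside 25.3% and 26.8%. After rescaling to TPM, 5 were lower and none higher, beside 8.07% and 17%. Themis2, the relative of Themis used by B and myeloid cells, was at 33.2, 34.3 and 6.10 FPKM in WT and at 0.697, 0.557 and 1.86 FPKM in KO, a difference of -3.38 (SE 0.67) against 1.53 for Themis. Clec2d, a lectin gene related to Cd69, was at 69.6, 257 and 56.6 FPKM in WT and at 2.66, 3.14 and 4.56 FPKM in KO. Among genes of the CD2 family, Slamf1 was the 1 gene called higher (1.10, SE 0.32), a call lost without WT 1, KO 1, KO 2 or KO 3 and after rescaling to TPM. In the fit with all libraries, Slamf7 (-3.32, SE 0.24), Ly9 (-2.22, SE 0.23), Cd244a (-1.69, SE 0.28) and Cd48 were lower.

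Genes that mark neighboring stages give the setting of the 10 genes. Of 17 genes of immature thymocytes, 12 were higher and 1 lower in KO, with a median of 4.27, beside 13.1% and 13.3% of all genes. Without WT 2, 13 were higher and 2 lower, beside 26.8% and 25.3%. After rescaling to TPM, 14 were higher and none lower, beside 17% and 8.07%. Ptcra, the partner chain of the pre-TCR, was at 0 reads in each WT library and at 161, 167 and 137 FPKM in KO. Notch3, a Notch receptor of early thymocytes, was at 0.0321 to 0.116 FPKM in WT and 109 to 162 FPKM in KO. Il2ra, a chain of the interleukin receptor that marks early thymocytes, was at 0.545 to 2.16 FPKM in WT and 219.8 to 245 FPKM in KO, a difference of 6.71 (SE 0.31), and Arpp21 was higher by 4.30 (SE 0.22). The 1 gene called lower with all libraries was Cd44, carried by the earliest progenitors and by memory cells, at -2.28 (SE 0.38). Cd44 did not pass after rescaling to TPM. Cd8b1, which encodes a chain of CD8, was the other gene called lower without WT 2, at -1.15 (SE 0.15). Of 15 genes of late maturation and exit, 13 were lower and none higher, with a median of -2.76, beside 13.3% and 13.1% of all genes. Klf2, which drives genes of exit, was at 406, 806 and 738 FPKM in WT and at 11.4, 4.64 and 4.61 FPKM in KO, and Ccr7, a homing receptor, was lower by -6.32 (SE 0.50). Ly6c2, a surface protein of mature CD8 T cells and monocytes, was at 260.2 to 361 FPKM in WT and 3.70 to 5.69 FPKM in KO. Of the 15, 14 were lower without WT 2 (beside 25.3% of all genes) and 6 after rescaling to TPM (beside 8.07%).

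Of 10 genes induced by TCR signaling, 9 were tested, with 6 lower and 1 higher in KO and a median of -1.93. The shares of all genes were 13.3% and 13.1%. Without WT 2, 6 were lower and 2 higher, beside 25.3% and 26.8%. After rescaling to TPM, 4 were lower and 2 higher, beside 8.07% and 17%. Egr1, an immediate early factor, was at 35.8, 18.7 and 36.5 FPKM in WT and at 1.90, 0.411 and 0.845 FPKM in KO. The orphan receptors Nr4a3 and Nr4a2 were lower by -3.04 (SE 0.28) and -4.36 (SE 0.53), and Egr3 by -1.93 (SE 0.29). Tox, a factor of the passage through positive selection, was the gene called higher, at 1.54 (SE 0.37), and was not called without WT 1, KO 1 or KO 3. With FPKM as deposited, Cd69, Cd5 and most of these genes were thus lower in KO, while Themis was higher. After rescaling to TPM, fewer of them were called lower, and Cd5 did not pass. None of the 7 genes of the TCR complex and its kinases passed with all libraries (median -0.01). Without WT 2, 3 were higher (beside 26.8% of all genes), and after rescaling to TPM 2 were (beside 17%).

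**Figure D4:**
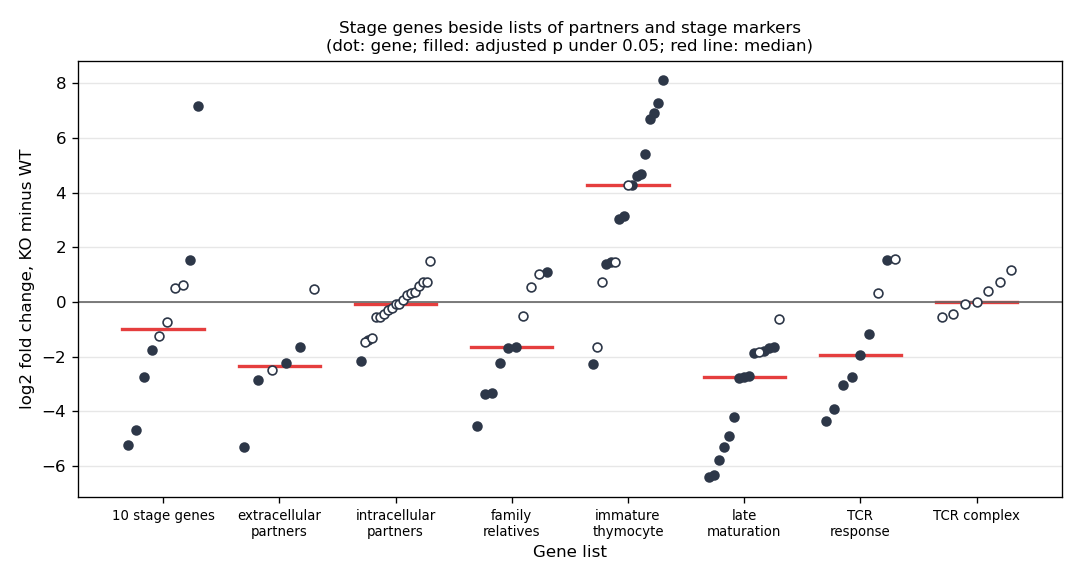
Difference between KO and WT (log2 scale) of each tested gene in the 10 stage genes and in 7 lists, 1 point per gene, filled where the limma threshold was passed, with the median as a red line. The median is 4.27 for immature thymocyte genes and -2.76 for late maturation genes, and the 10 stage genes span -5.24 to 7.16.

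Levels were also taken relative to the mean log2 level of Cd3d, Cd3e and Cd3g, used as a T cell reference within each library. These genes did not move together in WT 2. In WT 1, 2 and 3, Cd3d was at 89.8, 561 and 109 FPKM and Cd3g at 42.2, 158 and 51.4 FPKM. Cd3e was at 42.7, 22.6 and 60.03 FPKM. The reference is thus uncertain in WT 2, and so are the values relative to it there. On this scale 8 of the 10 genes kept their side of the threshold. Cd2 gained the call and Themis lost it. Endou stood at -5.86 to -5.13 log2 units against the CD3 genes in WT and at 1.48 to 1.76 in KO. For Cd7 these values were 0.52 to 1.39 in WT and -4.44 to -3.79 in KO, and for Themis they were -4.30 to -2.48 in WT and -1.72 to -1.35 in KO. Neither gene overlapped between the groups. Cd2 stood at 1.29 to 1.65 in WT and 0.02 to 0.42 in KO, and passed the threshold on this scale. Cd24a stood at 0.88 in WT 1 and WT 2, at -1.43 in WT 3 and at 0.28 to 0.79 in KO, so it overlapped on this scale too.

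The protein-coding genes most like each member over the 6 libraries were ranked by the root-mean-square difference of centered log2 values, a description that the group difference dominates for the genes that differ strongly. Endou was most like Il2ra (0.383), Gm525 (0.454) and Rag1 (0.497), and Rag1, which cuts the receptor genes during rearrangement, is on the immature list with Il2ra. Cd69 was most like Pmaip1 (0.249), Fos (0.277) and Ms4a4c (0.298). Cd7 was most like Lsp1 (0.176), Cst7 (0.331) and Fcgrt (0.362). Cd6 was most like Pim2 (0.243), Ptk2b (0.307) and Btla (0.337), whereas for its neighbor Cd5 they were Dtx3 (0.288), Rnf135 (0.290) and Xylt2 (0.292), so neither of this pair was among the closest 3 of the other. Themis was nearest to Mfsd4b4 (0.0703), Thy1 to Snx15 (0.0640), Cd27 to Kif1bp (0.0825), Cd2 to Ubald2 (0.121) and Cd24a to Lmo1 (0.208).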

How the data were processed

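Total RNA of flash-frozen BM was extracted with Trizol, and NEBNext Ultra libraries were sequenced as paired ends on an Illumina NovaSeq instrument. The authors deposited FPKM per gene with the gene length and coordinates. HISAT2 2.0.5, featureCounts 1.5.0-p3 and the mouse build GRCm38 are named in the submitters' processing notes; whether counting used strand is not given in the sources used here, so reads from Cd7 and its antisense gene Gm11775, which share 122 exon bases, cannot be told apart. Coordinates of 9 of the 10 members equalled those of GENCODE M21 (GRCm38); for Cd5 those of the deposited table are printed. FPKM times gene length gave whole reads for 100% of values above 0 (tolerance 0.001 read). The library size used differed from the recovered total (total over size 0.827 to 1.55, the highest in WT 2), so the deposited FPKM holds a scaling factor.

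The study tested counts with a count model; as the deposited unit is FPKM, log2(FPKM + 1) was fitted here by limma 3.58.1 (eBayes with trend, two-sided, Benjamini-Hochberg over the 13393 genes that reached an FPKM of 1 in 3 or more of the 6 libraries, threshold 0.05) in R 4.3.3 with the data.table package (version 1.17.8). The fit was tested on simulated data. An exact permutation test of 3 against 3 cannot go under p = 0.1. Members and lists were chosen with earlier results of these data known. Named genes are the members, up to 4 genes of smallest p in the partner, immature, late maturation and TCR response lists, genes of no signal, the 3 genes most like each member, Phf6 and the CD3 genes. Any other gene given with values is to be read as chosen after its values were seen. These include Traf5, Sh2d2a, the family relatives, Cd44, Cd8b1, Tox, Vamp1 and Klra8. Alternatives changed the pseudocount, filter, scaling, weights, gene set and block, used limma's voom on recovered reads, and left out each library in turn. Python 3.11.15, pandas 2.3.3, NumPy 2.4.6 and Matplotlib 3.10.9 were used.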

Additional observations from a re-analysis of the deposited data

How the results depend on the processing

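Over 19 alternatives, 172 of 190 member values kept their direction and side of the threshold, and Endou, Cd69 and Cd7 passed in every one. The count of all genes called, 3539 with all libraries, was 1837 at a mean FPKM of at least 5, 1760 when centered on the CD3 genes, 8461 with array weights and 1934 to 6967 when 1 library was left out, the highest being without WT 2 and the others over 1.5 times away being without KO 1 (2071), KO 2 (1934) or KO 3 (2021). Members lower in KO were 2 rather than 4 after rescaling to TPM (beside 8.07% of all genes). They were 3 to 6 with 1 library left out, beside 996 to 3383 of all 13393 genes tested. Cd5 was not called without WT 3, KO 2 or KO 3. Members higher were 1 rather than 2 when centered on the CD3 genes, beside 635 of all 13393 genes tested. They were 1 to 2 with 1 library left out, beside 938 to 3584 of all genes. Thy1 changed sign to 0.11 (TPM) and 0.15 (quantile normalization), and Cd24a, at 0.50, was -0.35 without WT 3 and 1.23 without WT 2, and reached 1.35 after rescaling to TPM. Cd27 passed with quantile normalization (1.19) and with array weights (0.77). With the replicate number as a block, 2676 genes were called, and the members stayed at 2 higher and 4 lower. Libraries of the same number had correlations of deviations of 0.0954, 0.105 and -0.153, against -0.195 to 0.232 for libraries of different number. With so few libraries these values cannot show whether those of the same number share more than a number. The cause of these changes was not tested. Endou in WT rests on as few as 9 reads, which limits the size of its fold.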
